A study of Homo sapiens with 18 samples.

Results

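Tumor necrosis factor (TNF), its relative lymphotoxin beta, 4 receptors of their superfamily and TRAF and IAP proteins of the signalling pathway were followed in HEK293 cells, a human embryonic kidney line, after the topoisomerase II poison etoposide. The group was defined by gene symbol: TNF, LTB, TNFRSF9, TNFRSF1A, TNFRSF10A, TNFRSF12A, TRAF1, TRAF2, BIRC2 and BIRC3. Of these 10 genes, 8 had a probe in the probe table used here, with 11 probes among the 47231 in the array table, and TRAF2 and BIRC3 were not analysed here. Of the 11 probes, 7 probes of 6 genes were detected (detection p under 0.05) on at least 3 of the 18 arrays and were tested.

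The 18 Illumina bead arrays form 6 groups of 3: cells with p65 S547A at 0, 4 and 8 h of etoposide, and cells with wild-type p65 (wt) at 0, 4 and 8 h. In every sample, controls included, the cell's own p65 (RELA, the transactivating subunit of NF-κB) was knocked down with siRNA, and a lentivirus carried in an HA-tagged p65 that the siRNA does not target. In S547A cells the serine at that position of the supplied p65 is alanine, so it cannot be phosphorylated there. The etoposide dose, the promoter of the virus and whether each line is a clone or a pool are not given in the labels, and siRNA leaves an unknown remainder of the cell's own p65. The series describes 3 independent experiments, so the replicates are separate treatments of the same 2 lines.

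TNF is made as a membrane ligand and released; when it binds TNFRSF1A, a receptor found on most cells, adaptors including TRAF2 and the ubiquitin ligases BIRC2 and BIRC3 are recruited and pass the signal to the kinases that free NF-κB. TNF, TNFRSF9, TRAF1 and BIRC3 are textbook NF-κB target genes, so the pathway can feed its own components. DNA breaks such as those made by etoposide also activate NF-κB from the nucleus, through the kinase ATM and the scaffold NEMO. TNFRSF9 is best known as a costimulatory receptor of T cells, TNFRSF12A as the receptor of the ligand TWEAK, and TNFRSF10A as a death receptor for TRAIL.

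Promoter windows, 250 bases before to 50 after the annotated start, were read from RefSeq (GRCh38.p14). They are shown because p65 is the protein that differs between the lines, and because the 4 genes include responding, flat and undetected members. TNFRSF9 (chr1:7940790-7941089, minus strand) and LTB (chr6:31582376-31582675, minus strand) hold a match to the NF-κB consensus, TNF (chr6:31575315-31575614, plus strand) holds only a looser match, and TNFRSF1A (chr12:6342027-6342326, minus strand) holds neither. Each is printed 5′ to 3′ on the gene's strand. Capitals mark consensus matches, or, in the TNF window, which has none, its looser match.

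TNFRSF9: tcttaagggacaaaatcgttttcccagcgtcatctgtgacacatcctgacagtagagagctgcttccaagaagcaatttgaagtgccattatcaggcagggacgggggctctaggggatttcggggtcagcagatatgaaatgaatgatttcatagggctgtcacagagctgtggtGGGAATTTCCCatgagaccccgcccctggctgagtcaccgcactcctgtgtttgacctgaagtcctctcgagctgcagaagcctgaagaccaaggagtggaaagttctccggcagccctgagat

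LTB: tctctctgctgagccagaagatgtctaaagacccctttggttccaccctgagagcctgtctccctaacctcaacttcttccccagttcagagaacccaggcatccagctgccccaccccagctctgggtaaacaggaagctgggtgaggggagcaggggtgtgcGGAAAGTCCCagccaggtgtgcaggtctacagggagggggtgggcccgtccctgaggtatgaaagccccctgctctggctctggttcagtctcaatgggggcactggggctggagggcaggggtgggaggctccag

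TNF: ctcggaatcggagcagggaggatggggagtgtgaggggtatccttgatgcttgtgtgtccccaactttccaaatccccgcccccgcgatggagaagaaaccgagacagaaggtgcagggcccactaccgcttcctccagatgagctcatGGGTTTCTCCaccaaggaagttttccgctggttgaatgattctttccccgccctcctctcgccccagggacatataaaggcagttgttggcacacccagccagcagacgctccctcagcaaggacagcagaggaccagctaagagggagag

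TNFRSF1A: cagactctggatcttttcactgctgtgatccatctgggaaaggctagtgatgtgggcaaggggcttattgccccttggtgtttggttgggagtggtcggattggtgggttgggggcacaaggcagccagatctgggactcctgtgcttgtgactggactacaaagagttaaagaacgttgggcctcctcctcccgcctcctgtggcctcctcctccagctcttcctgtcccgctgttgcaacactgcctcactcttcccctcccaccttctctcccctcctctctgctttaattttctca

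The TNFRSF9 capitals are 2 overlapping consensus matches, on the plus strand from base -74 and on the minus strand from base -73 relative to the start. The LTB consensus match begins at base -86 on the minus strand, and this window also holds other looser matches, left in lower case. The TNF capitals fit only the looser pattern GGGNNNNNCC, at base -101, which was searched after the consensus. Over both strands, 5.91% of 35116 RefSeq promoter windows hold the consensus and 58.7% hold the looser pattern, which includes the consensus. Of the members not printed, BIRC3 has 2 consensus matches, on the minus strand at bases -199 and -135, and the windows found for TRAF1, TRAF2 and BIRC2 have none. Windows of TNFRSF10A and TNFRSF12A were not used here, and a match is a description of letters, not of binding.

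The arrays were alike in quality. Each array detected 35.8% to 39.2% of its probes with a median intensity of 94.7 to 122, and arrays of a group correlated at r of 0.981 to 0.988 over the tested probes, against 0.961 to 0.987 between groups. Of 10 genes listed as HEK293 and embryonic kidney markers, 9 had a probe and 8 were detected on at least 3 arrays. EYA1, KRT18, VIM, CDH2, NEFL and NEFM were detected on all 18, KRT8 on 17, LHX1 on 6 and PAX2 on 1. Of 12 blood and immune cell markers, 11 had a probe and 5 were detected on at least 3 arrays: CD68 on all 18, CD14 on 15, MS4A1 and CSF1R on 7 each and LYZ on 6. PTPRC, CD3E, NKG7 and SPI1 were detected on 0 arrays, and the mean log2 level of the list was 5.16 to 5.45 on every array. Of 7 fibroblast markers, 4 were detected on at least 3 arrays, among them COL1A1 and COL3A1 on 13 each. Of 5 endothelial markers, 0 were.

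Within the group, TNF changed most. Its single probe was at or near the floor of the array in all untreated cells and was detected on every treated array. In S547A cells the log2 levels were 4.98, 4.88 and 4.84 untreated, 9.40, 9.04 and 9.10 at 4 h, and 9.34, 9.40 and 9.43 at 8 h. In wt cells they were 4.70, 4.54 and 4.98 untreated, 8.33, 8.37 and 8.60 at 4 h, and 8.82, 8.91 and 8.86 at 8 h. Every treated array lay above every untreated one, and none of the 6 untreated arrays passed detection. The deposited intensities, before any correction, were 545 to 687 at 4 h and 683 to 853 at 8 h in S547A cells, against 94.5 to 109 in the same line untreated.

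Because untreated TNF was not well above background, its change is a bound, set against the lowest signal among probes detected on each untreated array or the probe's own signal, whichever was higher. TNF was at least 15.0-fold higher at 4 h and at least 17.4-fold higher at 8 h in S547A cells, and at least 9.38-fold and at least 12.7-fold higher in wt cells. The fitted log2 changes, which depend on that floor, were 4.28 and 4.49 in S547A cells and 3.69 and 4.12 in wt cells (SE 0.14, n = 3 arrays a group, adjusted p at most 2.86e-11). Without background correction the fitted changes were 2.47 and 2.65 in S547A cells and 1.94 and 2.29 in wt cells, and all 4 still passed the test. These are smaller than the bounds, which hold for background-corrected levels only. In bulk RNA, more expressing cells and more RNA per cell cannot be told apart.

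From 4 to 8 h no further change of TNF passed the test. The 8 h minus 4 h difference was 0.21 log2 in S547A cells (adjusted p = 0.383) and 0.43 in wt cells (adjusted p = 0.0638). In wt cells that difference passed the test in 3 of 13 alternative settings.

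**Figure D1:**
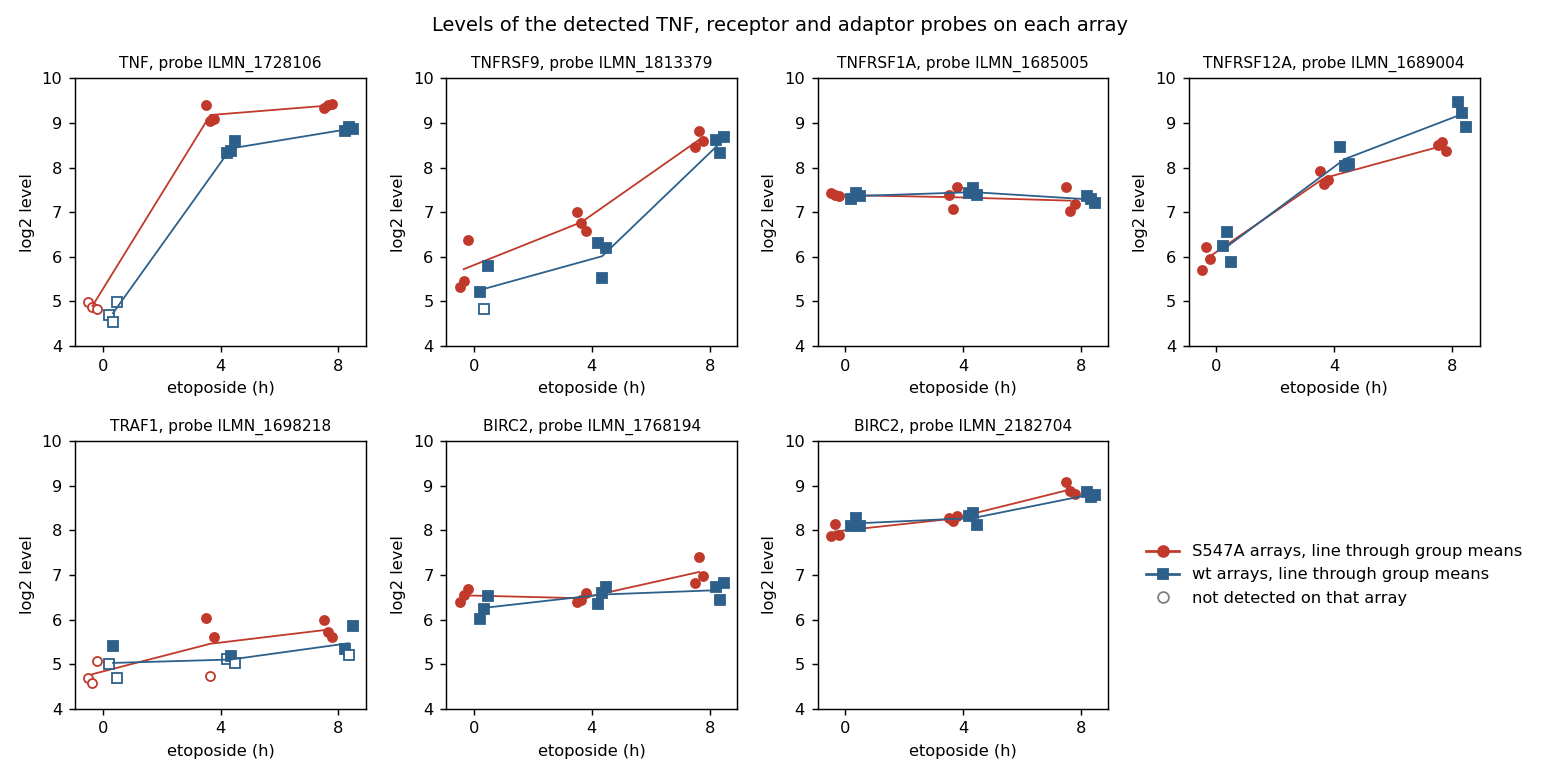
Log2 level (vertical axis) of each of the 7 tested probes on every array against hours of etoposide (horizontal axis), S547A as circles and wt as squares, with lines through group means and open symbols where the probe was not detected. TNF lies between 8.33 and 9.43 on all treated arrays and below 5 on all untreated ones, TNFRSF9 climbs mainly between 4 and 8 h, TNFRSF12A climbs at both steps, and TNFRSF1A stays between 7.03 and 7.57.

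The other ligand, lymphotoxin beta, was not seen. LTB forms a membrane complex with lymphotoxin alpha. Its 2 probes passed detection on 0 of 18 arrays, with log2 levels of 4.39 to 4.68 and 4.37 to 4.67, so no change could be measured at this signal.

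TNFRSF9 rose late. In S547A cells its log2 levels were 5.33, 5.46 and 6.38 untreated, 7.00, 6.76 and 6.57 at 4 h, and 8.47, 8.82 and 8.60 at 8 h. In wt cells they were 5.21, 4.84 and 5.80 untreated, 6.31, 5.52 and 6.21 at 4 h, and 8.62, 8.33 and 8.69 at 8 h. All 6 arrays at 8 h lay above all 12 earlier ones, and the 4 h and untreated arrays overlapped in wt cells only. Untreated, TNFRSF9 was detected on all 3 S547A arrays and 2 of 3 wt arrays.

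At 8 h TNFRSF9 was 7.49-fold higher in S547A cells (log2 2.90, SE 0.28, adjusted p = 1.34e-06) and 9.61-fold higher in wt cells (log2 3.26, SE 0.28, adjusted p = 3.85e-07). Most of this came after 4 h: the 8 h over 4 h difference was 1.85 log2 in S547A cells (adjusted p = 0.000724) and 2.53 in wt cells (adjusted p = 4.56e-05). In wt cells no other tested probe rose more between 4 and 8 h, and in S547A cells TNFRSF9 was number 5. At 4 h the difference from untreated was 1.06 in S547A cells (adjusted p = 0.0339) and 0.73 in wt cells (adjusted p = 0.152). The 4 h call in S547A cells was lost in 8 of 13 alternatives, among them without untreated replicate 1 (adjusted p = 0.143) or 2 (0.129) and without any one of the 4 h replicates (0.108, 0.0801 and 0.0579). Without background correction the 8 h changes were 1.71 in S547A cells and 1.81 in wt cells, and both passed. Untreated TNFRSF9 was near background, in wt cells at detection p of 0.0416, 0.201 and 0.00649, so the folds at 8 h depend on that level.

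TNFRSF12A rose at both steps. In S547A cells its log2 levels were 5.70, 6.22 and 5.94 untreated, 7.94, 7.63 and 7.73 at 4 h, and 8.52, 8.57 and 8.37 at 8 h. In wt cells they were 6.25, 6.55 and 5.88 untreated, 8.46, 8.03 and 8.08 at 4 h, and 9.47, 9.22 and 8.92 at 8 h. Within each line the 3 times did not overlap.

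The log2 change of TNFRSF12A was 1.81 at 4 h (adjusted p = 1.74e-05) and 2.53 at 8 h (adjusted p = 9.6e-08) in S547A cells, with SE 0.19. It was 1.96 at 4 h (adjusted p = 6.32e-06) and 2.98 at 8 h (adjusted p = 1.25e-08) in wt cells. From 4 to 8 h it rose by a further 0.72 in S547A cells (adjusted p = 0.0246) and 1.01 in wt cells (adjusted p = 0.00446). The step in S547A cells was lost in 5 of 13 alternatives, 4 of which left out 1 array, replicate 2 (adjusted p = 0.0753) or 3 (0.0682) at 4 h or replicate 1 (0.0682) or 2 (0.0804) at 8 h. Without background correction the 4 h and 8 h changes from untreated were 0.98 and 1.52 in S547A cells and 1.18 and 1.99 in wt cells, and all 4 passed.

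TNFRSF1A, the broadly expressed receptor that binds TNF itself, showed no change that passed the test. Its log2 levels spanned 7.03 to 7.57 over all 18 arrays, with a median of 7.37, and it was detected on each. The differences from untreated were -0.05 at 4 h and -0.13 at 8 h in S547A cells, and 0.09 and -0.08 in wt cells (SE 0.15, adjusted p 0.598 to 0.905). TNFRSF10A was detected on 2 of 18 arrays, wt untreated replicate 3 and S547A 8 h replicate 2, with log2 levels of 4.46 to 5.34, and was not tested.

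Of the intracellular members, BIRC2, which encodes the ubiquitin ligase cIAP1, rose modestly and late. Its brighter probe (ILMN_2182704) read 7.87, 8.15 and 7.91 untreated, 8.27, 8.20 and 8.31 at 4 h, and 9.08, 8.87 and 8.80 at 8 h in S547A cells. In wt cells it read 8.09, 8.28 and 8.10 untreated, 8.31, 8.39 and 8.12 at 4 h, and 8.87, 8.76 and 8.80 at 8 h. All 6 arrays at 8 h lay above the 12 earlier ones.

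By this probe BIRC2 was 1.92-fold higher at 8 h in S547A cells (log2 0.94, SE 0.13, adjusted p = 4.18e-05) and 1.57-fold higher in wt cells (log2 0.65, SE 0.13, adjusted p = 0.00124). At 4 h the differences were 0.29 in S547A cells (adjusted p = 0.234) and 0.12 in wt cells (adjusted p = 0.686). The second probe (ILMN_1768194) was dimmer and less clear: at 8 h it was 0.52 higher in S547A cells (adjusted p = 0.0393), a call lost in 6 of 12 alternatives, and its difference in wt cells was 0.40 (adjusted p = 0.124). Without S547A 8 h replicate 2, at 7.40 the highest array for this probe, its S547A difference at 8 h was 0.36 (adjusted p = 0.193); without untreated replicate 1 or 2, or 8 h replicate 3, the adjusted p was 0.133, 0.0825 and 0.0611.

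TRAF1, an adaptor without the ubiquitin ligase domain of its relatives, sat at the edge of detection. In S547A cells its log2 levels were 4.69, 4.58 and 5.07 untreated, 6.03, 4.74 and 5.60 at 4 h, and 6.00, 5.72 and 5.60 at 8 h, with detection on 0, 2 and 3 arrays. In wt cells they were 5.00, 5.40 and 4.68 untreated, 5.11, 5.18 and 5.02 at 4 h, and 5.35, 5.20 and 5.86 at 8 h, with detection on 1, 1 and 2 arrays. The S547A arrays at 8 h lay above the untreated ones, while in wt cells the 4 h and 8 h arrays overlapped the untreated ones. The wt arrays at 8 h lay above those at 4 h (log2 difference 0.37, limma adjusted p = 0.484).

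At 8 h TRAF1 was at least 1.41-fold higher in S547A cells (fitted log2 change 1.00, SE 0.27, adjusted p = 0.0124), and its difference in wt cells was 0.44 (adjusted p = 0.288). Without background correction the S547A change was 0.38 log2, also below the bound, and passed. The S547A call was lost without S547A untreated replicate 2 (adjusted p = 0.0516) or S547A 8 h replicate 1 (adjusted p = 0.0528). At 4 h in S547A cells the difference of 0.68 did not pass (adjusted p = 0.176), and without replicate 2, the array not detected, it was 1.04 (adjusted p = 0.0203). A second TRAF1 probe was detected on 2 of 18 arrays and was not tested.

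Counted over the 7 tested probes, 3 were higher at 4 h and 6 at 8 h in S547A cells, against 3.18% and 11.5% of all tested probes. In wt cells 2 were higher at 4 h and 4 at 8 h, against 3.49% and 11.5%. None was lower, where 2.17% and 10.8% of all probes were lower at 4 and 8 h in S547A cells and 2.54% and 9.81% in wt cells. Between 4 and 8 h, 4 rose in S547A cells (5.34% of all probes) and 3 in wt cells (4.48%). That count of 4 was 2 to 3 when any single array of the compared groups was left out. It was 2 without replicate 2 or 3 at 4 h or replicate 2 at 8 h. By the same check the S547A count of 6 at 8 h was 4 to 6. The median log2 change of the 7 was 1.00 at 8 h in S547A cells and 0.65 in wt cells, with -0.02 over all probes in both. A probe had to be detected on 3 arrays to be tested, which genes absent before treatment can pass only through the treated groups, so these counts describe the tested probes and not the 10 genes.

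**Figure D2:**
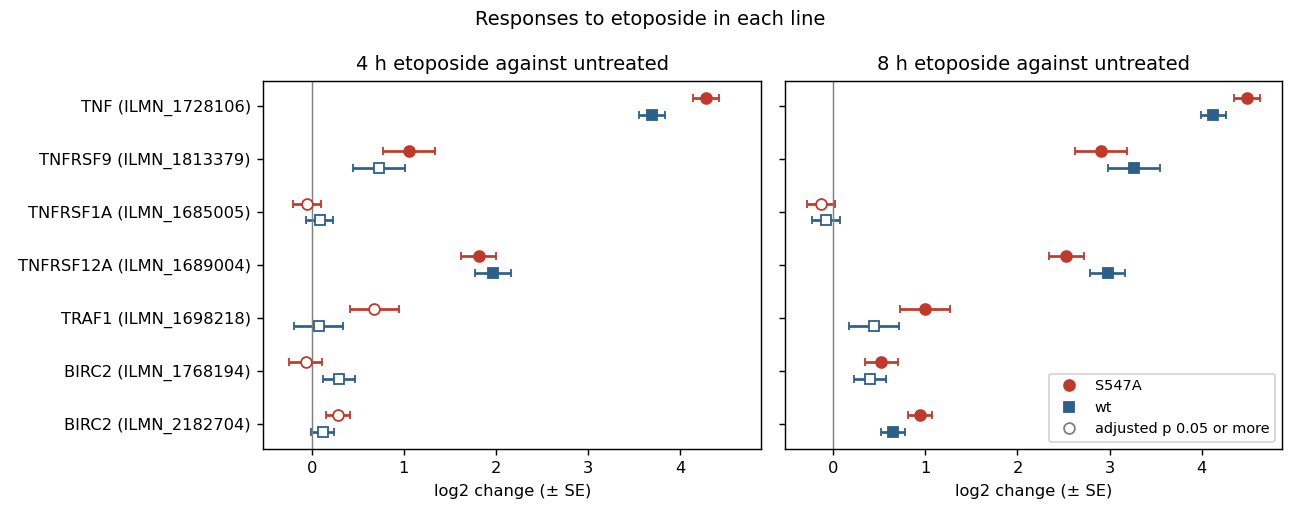
Log2 change from untreated cells of the same line (horizontal axis, bars ± SE from the fit) at 4 h and 8 h for each tested probe, S547A as circles and wt as squares, filled where the adjusted p was under 0.05. TNF and TNFRSF12A are filled in both lines at both times, TNFRSF9 and the brighter BIRC2 probe in both lines at 8 h, and TNFRSF1A nowhere.

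The lines were then compared at each time. There is 1 line per form of p65, so the form, its level and the line cannot be told apart. No tested probe of the group passed the test at any time (limma), while over all probes 3 passed untreated, 9 at 4 h and 11 at 8 h, or 0.0135%, 0.0406% and 0.0496%. Under an unadjusted p of 0.05 there were 0, 3 and 3 probes of the group, against 1272, 1176 and 1361 of all 22161 probes. The smallest p of the group was that of TNF at 4 h, which averaged 9.18 ± 0.20 in S547A cells and 8.43 ± 0.15 in wt cells (SD, n = 3 each). The difference was 0.75 log2 (95% interval, not adjusted for the number of tests, 0.46 to 1.04, unadjusted p = 4.5e-05), every S547A array lay above every wt array, and the adjusted p over 22161 probes was 0.0879.

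That result sits at the threshold and depends on how many features are tested and how the background is treated. With 1 probe per gene, hence 12055 tests, TNF at 4 h passed at an adjusted p of 0.0399. It passed at 0.0019 without background correction and at 0.00336 in the authors' normalized values. Fitted on the 6 arrays of that time alone, the adjusted p was 0.903. Its difference stayed between 0.61 and 0.83 log2 over the 13 alternatives.

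At 8 h TNF averaged 9.39 ± 0.04 in S547A cells and 8.87 ± 0.05 in wt cells (SD, n = 3 each), a difference of 0.53 (95% interval 0.24 to 0.82, adjusted p = 0.454), with no overlap of the arrays. Untreated, the difference was 0.16 with both lines below detection. TNFAIP3, the ubiquitin-editing inhibitor of this pathway and no member of the group, was 1.09 log2 higher in S547A cells at 4 h (adjusted p = 0.00714) and 1.11 higher at 8 h (adjusted p = 0.00419). The 4 h call was lost without wt 4 h replicate 2 (adjusted p = 0.059), and both calls were lost when only the compared groups were fitted (0.366 and 0.247).

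For TNFRSF12A the difference had the other sign. S547A minus wt was -0.43 log2 at 4 h (95% interval -0.83 to -0.02, adjusted p = 0.931) and -0.72 at 8 h (95% interval -1.12 to -0.31, adjusted p = 0.476). Arrays of the lines did not overlap at either time. At 8 h it passed the test without background correction (adjusted p = 0.02) and in the authors' normalized values (adjusted p = 0.0247). For TNFRSF9 it was 0.76 at 4 h (95% interval 0.18 to 1.35, adjusted p = 0.845), again without overlap, and 0.08 at 8 h.

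Arrays of the lines that do not overlap were common over all probes. At 4 h, 4% of all probes were higher in S547A cells without overlap and 4.78% lower; at 8 h these shares were 5% and 6.97%. Of the 7 tested probes, 2 were higher and 1 lower at 4 h, and 1 was higher and 1 lower at 8 h. For TNFRSF1A and both BIRC2 probes the intervals of the line differences at 4 h include 0, and none of the 3 reaches 0.5 log2 on either side. At 8 h this held for TNFRSF1A and the brighter BIRC2 probe, while the dimmer BIRC2 probe differed by 0.41 (95% interval 0.04 to 0.78, unadjusted p = 0.0329, adjusted p = 0.805), with overlapping arrays.

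RELA itself passed the test between the untreated lines, measured by 1 probe that cannot separate the supplied p65 from the cell's own. Its log2 levels averaged 8.86 in S547A cells and 7.80 in wt cells untreated, 10.16 and 9.43 at 4 h, and 9.69 and 9.22 at 8 h. The untreated difference was 1.07 (adjusted p = 0.0486), a call lost in 7 of 13 alternatives, 5 of them the loss of 1 array (adjusted p up to 0.256), and those at 4 and 8 h were 0.73 (adjusted p = 0.224) and 0.47 (adjusted p = 0.654). With etoposide RELA rose by 1.29 log2 at 4 h (adjusted p = 5.44e-05) and 0.83 at 8 h (adjusted p = 0.0008) in S547A cells. In wt cells it rose by 1.63 (adjusted p = 3.65e-06) and 1.43 (adjusted p = 4.51e-06). The part of RELA's level in the line differences of TNF and TNFRSF12A, and in the responses of the group to etoposide, was not tested.

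Whether the response to etoposide itself differed was tested as S547A minus wt. No tested probe of the group passed (limma), against 0.0135% of all probes at 4 h and 0.018% at 8 h. At an unadjusted p under 0.05 were 1 and 0 probes of the group, against 1216 and 1486 of all 22161 probes. For TNF this difference was 0.59 log2 at 4 h (unadjusted p = 0.00769, adjusted p = 0.808) and 0.37 at 8 h (adjusted p = 0.753). Both values start from undetected untreated levels. Hence the calls of TRAF1 at 8 h and TNFRSF9 at 4 h in S547A cells and not in wt cells do not show that the lines respond differently.

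**Figure D3:**
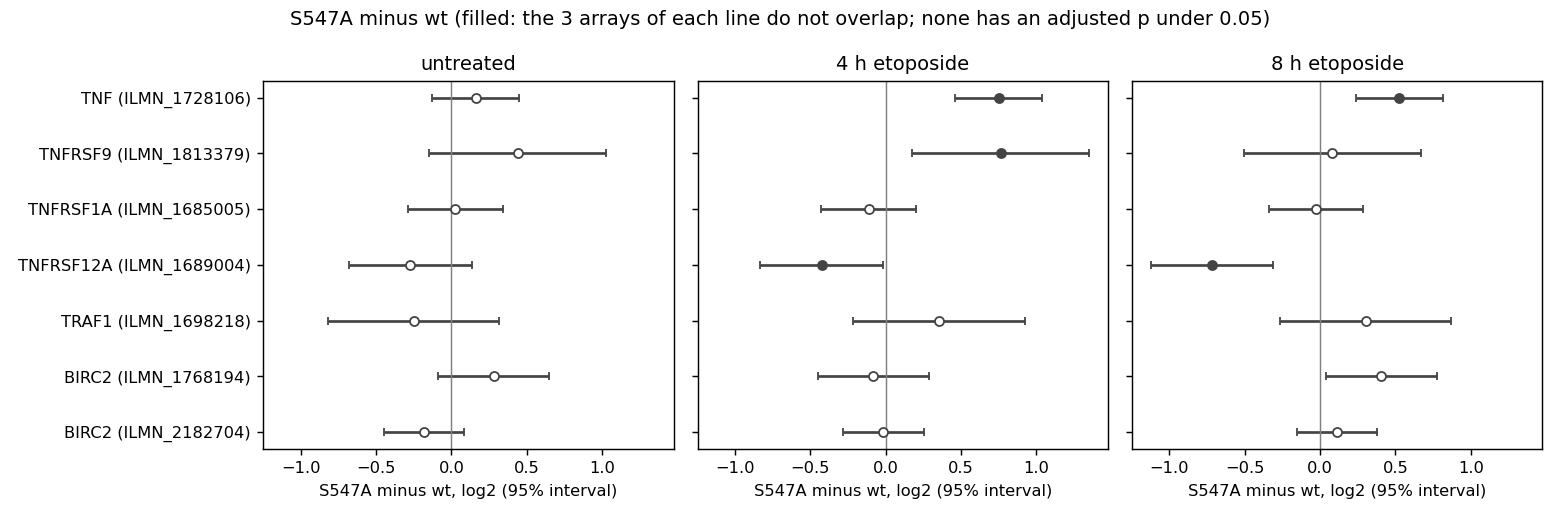
Difference of the log2 level, S547A minus wt (horizontal axis, bars 95% intervals), for each tested probe untreated and at 4 and 8 h, filled where the 3 arrays of each line do not overlap. TNF lies right of 0 at 4 and 8 h and TNFRSF12A left of it, with adjusted p of 0.0879 or more in this fit.

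Other genes of the pathway were taken from a list of 16 ligands, 25 receptors and 32 adaptors and signalling proteins, members of the group left out. Each gene was counted by its brightest tested probe, while the shares given beside the counts are over all tested probes. Of the ligands, 7 of 15 with a probe were tested, where 12055 of 20045 genes with a probe had a tested one. At 8 h, 1 was higher and 0 lower in S547A cells, and 1 was higher and 1 lower in wt cells. Over all probes 11.5% were higher in each line, and 10.8% were lower in S547A cells and 9.81% in wt cells, so counts this small are near the background. CD70, the ligand of CD27, rose by 1.57 log2 in S547A cells (adjusted p = 1.36e-05) and 1.61 in wt cells (adjusted p = 1.03e-05). TNFSF14, which binds the lymphotoxin beta receptor, had a log2 difference of -0.25 in S547A cells at 8 h (adjusted p = 0.473) and fell by 0.75 in wt cells (adjusted p = 0.0182). That call was lost without wt untreated replicate 1 (adjusted p = 0.101) or wt 8 h replicate 3 (0.0685). No ligand or receptor on the list passed at 4 h in either line.

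Of 11 tested receptors, 1 was higher and 1 lower at 8 h in S547A cells, and 1 was higher and 2 lower in wt cells, again near the shares over all probes. TNFRSF19, an orphan receptor of the family, fell by 0.94 log2 in S547A cells (adjusted p = 3.88e-05) and by 0.73 in wt cells (adjusted p = 0.00042). TNFRSF10B, a TRAIL death receptor and p53 target, rose by 0.61 in S547A cells (adjusted p = 0.00212) and 0.58 in wt cells (adjusted p = 0.00324) by its brightest probe. By probe ILMN_2331010 it was 1.01 higher in S547A cells (adjusted p = 0.00166), and its difference in wt cells was 0.43 (adjusted p = 0.16). By probe ILMN_1812915 the differences were -0.07 and 0.08 and did not pass. TNFRSF10D, a decoy receptor for TRAIL, was at -0.42 in S547A cells (adjusted p = 0.162) and fell by 0.81 in wt cells (adjusted p = 0.00846), a call lost without wt untreated replicate 2 (adjusted p = 0.0516).

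Of 26 signalling proteins tested, 4 were higher at 4 h in each line (3.18% of all probes in S547A cells and 3.49% in wt cells). None was lower at 4 h, where 2.17% of all probes were lower in S547A cells and 2.54% in wt cells. At 8 h, 9 were higher and 1 lower in S547A cells, and 10 were higher and 0 lower in wt cells. Over all probes 11.5% were higher in either line, and 10.8% were lower in S547A cells and 9.81% in wt cells. In wt cells, leaving out any single array of the compared groups gave 2 to 3 calls at 4 h and 6 to 9 at 8 h. The 4 h count was 2 without untreated replicate 1, and the 8 h count was 6 without untreated replicate 2. In S547A cells this gave 3 to 4 calls at 4 h and 8 to 10 at 8 h, either direction. The median log2 change of the 26 at 8 h was 0.36 in S547A cells and 0.46 in wt cells. TNFAIP3 led, at least 32.2-fold higher at 4 h and at least 40.2-fold at 8 h in S547A cells, where it was undetected before treatment. In wt cells, where 1 of 3 untreated arrays detected it, the fitted log2 changes were 4.11 and 4.40, which depend on that near-background level.

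TRAF4, an adaptor related to TRAF2, rose early and stayed up, with log2 changes of 1.35 and 1.27 at 4 and 8 h in S547A cells and 0.94 and 1.00 in wt cells (adjusted p at most 0.00743). CYLD, a deubiquitinase that restrains NF-κB signalling, had log2 changes of 1.29 and 1.88 at 4 and 8 h in S547A cells (adjusted p = 0.00748 and 6.96e-05). In wt cells CYLD was at 0.27 at 4 h (adjusted p = 0.659) and 0.78 at 8 h (adjusted p = 0.0449), with overlapping arrays. DIABLO, a mitochondrial antagonist of IAP proteins, rose by 0.91 in S547A cells (adjusted p = 0.000164) and 0.96 in wt cells (adjusted p = 9.62e-05) at 8 h. RNF31, the catalytic subunit of the linear ubiquitin ligase, fell by 0.66 in S547A cells at 8 h (adjusted p = 0.0154), a call lost without untreated replicate 2 (0.0705), without 8 h replicate 3 (0.088) and in the fit of the compared groups only; in wt cells its difference was -0.40 (adjusted p = 0.149). IKBKG, which encodes NEMO, rose by 0.71 in S547A cells (adjusted p = 0.00165) and 0.95 in wt cells (adjusted p = 0.000143) at 8 h. At 4 h its difference was 0.43 in S547A cells (adjusted p = 0.0997) and 0.65 in wt cells (adjusted p = 0.0115). The wt call at 4 h was lost without untreated replicate 1 (0.0668) or 3 (0.0505) and in the fit of the compared groups only. No listed ligand, receptor or signalling protein passed when the responses of the lines were compared at 4 or 8 h (limma). Without background correction, and in the authors' normalized values, 1 signalling protein passed at each time. In the main fit, calls in 1 line only therefore do not show that the lines respond differently.

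**Figure D4:**
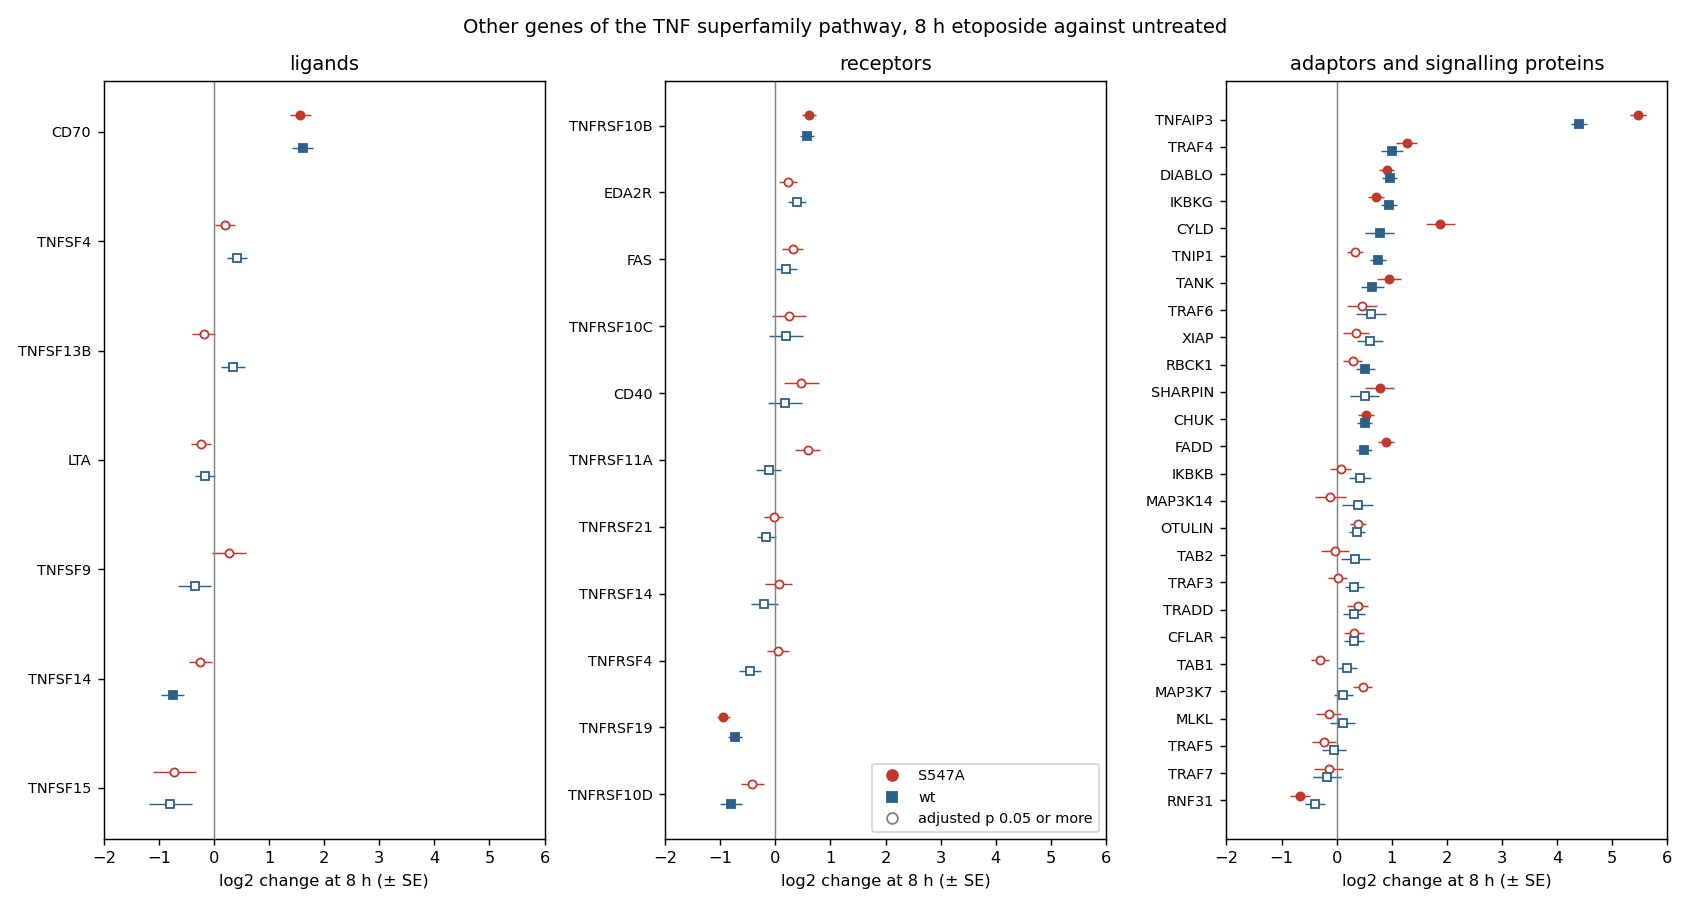
Log2 change at 8 h (horizontal axis, bars ± SE) of the other tested ligands, receptors and signalling proteins, 1 probe per gene, S547A as circles and wt as squares, filled where the adjusted p was under 0.05, genes ordered by the wt change. TNFAIP3 stands alone above 4 in both lines, CD70 leads the ligands at 1.57 in S547A and 1.61 in wt cells, and filled symbols among the signalling proteins lie almost all right of 0.

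The genes whose 6 group means were most like each responding member were also listed, by Pearson r among 1260 genes with a range of at least 1 log2 (1261 for BIRC2). The points share arrays and treatment times, so high r is common. TNF was most like PPP1R15A (r = 0.998), IRF1 (0.998) and TNFAIP3 (0.997), all at nearly full level by 4 h. TNFRSF9 was most like NFKB1 (0.999), LPXN (0.996) and STAM (0.992), which rose mainly between 4 and 8 h. TNFRSF12A was most like ZNF773 (0.998), NAPB (0.997) and ZNF200 (0.994). BIRC2 was most like PPM1D (0.997), BCLAF1 (0.995) and TMEM242 (0.995).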

How the data were processed

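Total RNA of 18 samples was hybridised to Illumina bead arrays. Per the file headers, the deposited table pairs each probe's linear intensity on an array with a detection p-value; the submitters' processing notes name GenomeStudio. A second deposited table holds intensities the authors normalized between arrays (rank correlation 1 with the same array, at most 0.869 with another). Neither names a genome build. Background correction from the detection p-values, quantile normalization and the log2 step were done by neqc (limma 3.58.1, R 4.3.3, offset 16). The 22161 of 47231 probes detected at p under 0.05 on 3 or more arrays were kept. A limma model with 1 mean per group used all 18 arrays (12 residual degrees of freedom, two-sided moderated tests), and p-values were adjusted by Benjamini-Hochberg over all kept probes in each of 11 comparisons, with calls under 0.05. Symbols came from the platform table: 30112 probes had 1 symbol, 8 several and 17111 none, and 30073 of the first matched the gene table. The fit was tested on simulated data.

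The members and lists were chosen with earlier results of these data known. All probes of the members are described. From the pathway list, called genes with no overlap of arrays are named, up to 3 per role and direction, for the comparisons with untreated cells and between the lines. Pathway calls for 8 h against 4 h are left out, so RBCK1, TNIP1 and MAP3K7, which met this rule only there, are not described. For each member called in both lines at 8 h the 3 most alike genes are named. Values of a named gene in the other line or at the other time are given for comparison. Same-numbered arrays were checked for pairing by the correlations of their deviations from group means. These ran from -0.06 to 0.19, against -0.20 to 0.10 for arrays of different number. For 15 of 18 samples the best correlation with another group was at their own number. All 3 pairs exceeded 0.1 only for S547A 8 h against 4 h (0.103, 0.121 and 0.130), so the numbers were taken as pairing samples there, from the data and not from the labels. The p-values given above come from the fit without pairing, and the replicate block below is the check. Alternatives were no background correction, median scaling, the authors' table, no detection filter, the brightest probe per gene, only the compared groups, a replicate block and leaving out each array. The number of arrays, 3 a group, limits the precision.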

Additional observations from a re-analysis of the deposited data

How the results depend on the processing

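Over single probes of the group, 1032 values under alternatives kept their side of the threshold, 32 lost the call, 10 gained it and 0 turned sign among called values. Some values that were not called did change sign, such as TRAF1 in wt cells at 4 h, which went from 0.08 to as low as -0.10. Counts of called probes of the group moved as follows. For S547A against wt at 4 h, 0 became 1 (TNF) without background correction, in the authors' normalized table and with the brightest probe per gene. At 8 h, 0 became 2 without background correction (TNF, adjusted p = 0.0498, and TNFRSF12A) and 1 (TNFRSF12A) in the authors' table. For S547A 8 h against 4 h, 4 became 1 with only the compared groups, where fewer arrays estimate the spread. Leaving out single arrays gave 2 to 3 there, 4 to 6 for S547A at 8 h, 2 to 3 for S547A at 4 h, 2 to 3 for wt 8 h against 4 h, and the full count elsewhere. With the replicate block, S547A 8 h against 4 h gave 4 called probes of the group as without it, and no call of the group changed under the block in any comparison.

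Counts over all probes also moved. With only the compared groups they were 320 against 1185 for S547A at 4 h, 762 against 1335 for wt at 4 h, 408 against 2220 for S547A 8 h against 4 h, and 878 against 1683 for wt. Leaving out single arrays gave 705 to 953, 798 to 931, 1314 to 1909 and 867 to 1053 for these 4 comparisons in the same order. Without background correction, S547A against wt gave 14 at 4 h and 32 at 8 h in place of 9 and 11, and wt 8 h against 4 h gave 2538; the authors' table gave 16 and 32. Under the block, 1 probe in place of 3 passed for S547A against wt untreated. Median scaling moved the median of all probes at 8 h in S547A cells to -0.14 and the split to 2221 higher and 3372 lower, from 2550 and 2404; no call of the group changed direction. The slide as a block was not run, as the files name no slide. Signal over background limits untreated TNF, TNFRSF9, TRAF1, LTB and TNFRSF10A, and the cause of the changes with background treatment was not tested.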
